A study of Mus musculus with 12 samples.

Results

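The genes described are the lipoprotein lipase gene Lpl and 9 genes whose products build, load, trim or clear lipoproteins: Lipc, Mttp, Apob, Apoa1, Apoc3, Apoa4, Apoa5, Vldlr and Lrp1. They were taken by symbol, 10 of the 22322 gene symbols in the tables, and where a symbol had several transcript rows the row with the highest mean over the 12 livers was used. Lpl was listed because it was already known to be among the largest rises in knockout liver, so its genotype difference is given as a description with no test. The genes were thus chosen by their earlier measured values in these livers. The tables hold RPKM, which are read numbers scaled to transcript length and to sequencing depth. Levels of genes are compared on the rows used, and they depend on the row. Over the 12 livers Lrp1 averaged 95.4 RPKM on its row of 292 bases and 61.3 RPKM on its row of 14888 bases.

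Liver RNA was sequenced from 12 male C57BL/6 mice aged 8 weeks, in 4 groups of 3: WT at CT0, WT at CT12, KO at CT0 and KO at CT12. CT is circadian time in hours, counted from the hour of lights-on and measured in mice moved to constant darkness shortly before sampling. The sample titles give CT, which is followed here, while the sample descriptions and protocol text write ZT for the same hours. The WT mice carried Bmal1 flox/flox alleles, and the KO mice were Bmal1 flox/flox crossed to a CRE recombinase line with a liver-specific promoter that is not named. Since the WT mice are not said to carry CRE, an effect of CRE and one of Bmal1 loss cannot be told apart. The paper and the sample titles give 3 mice per group, while the protocol text in the labels speaks of 2, so how many of the libraries of a group come from separate animals is not certain and p-values measure the spread between these libraries.

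Fat travels in blood inside lipoproteins, particles with a core of triglyceride and cholesterol ester. The liver builds very low density lipoprotein by loading lipid onto apolipoprotein B with the microsomal triglyceride transfer protein, lipases on vessel walls then cut the triglyceride, and receptors take up what remains. Lipoprotein lipase does this cutting in fat, heart and muscle, and adult liver is known for making little of it and for using hepatic lipase, the product of Lipc, in its place. BMAL1, encoded by Arntl, pairs with CLOCK as the activating factor of the circadian clock.

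The depth recovered from the values was 11464100 to 19019400 reads per library, and replicates of a group correlated with r of 0.980 to 0.990 across genes. Arntl stood at 15.9 ± 0.370 RPKM (SD, n = 3) in WT at CT0, 1.05 ± 0.320 in WT at CT12, 6.37 ± 0.944 in KO at CT0 and 3.99 ± 0.391 in KO at CT12. This row covers the whole transcript, of which only the floxed part is removed, so it does not check the deletion, and at CT12 its level was higher in KO than in WT. The hepatocyte genes Ttr, Tat, Cps1, Asgr1, Serpina1a and Cyp2e1 summed to 9197 to 11120 RPKM in every library, so the samples carry the labelled tissue, while Alb was lower in KO, with log2 differences of -0.93 at CT0 and -1.05 at CT12 (adjusted p = 0.0045 and 0.000299, limma). In bulk liver, fewer cells of a type and less RNA per cell cannot be told apart.

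Lpl was low in WT liver and far higher in KO liver at both times. In WT at CT0 the livers gave 5.40, 8.46 and 7.16 RPKM, and in WT at CT12 they gave 3.59, 2.75 and 2.32 RPKM. In KO at CT0 the values were 24.7, 84.7 and 45.4 RPKM, and in KO at CT12 they were 59.5, 53.9 and 51.2 RPKM. Every KO liver lay above every WT liver, and the KO livers at CT0 were widely spread while those at CT12 were close together. The lowest KO value, 24.7 RPKM in replicate 1 at CT0, was still 2.91 times the highest WT value. The row behind these values, the only 1 for Lpl, is a transcript of 4115 bases in 10 exons at chr8:71404390-71430833 on the plus strand of the mm9 build, and it held 128 to 4962 reads per library.

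The group means of Lpl were 7.01 ± 1.53 RPKM (SD, n = 3) in WT and 51.6 ± 30.5 in KO at CT0, a ratio of 7.36. At CT12 they were 2.88 ± 0.644 in WT and 54.9 ± 4.20 in KO, a ratio of 19.02. On the log2(RPKM + 1) scale, which understates changes of low values, KO exceeded WT by 2.56 (SE 0.33) at CT0 and by 3.86 (SE 0.33) at CT12. Both standard errors come from 1 spread shared by the 4 groups, so they do not show the wider spread of KO at CT0. Without replicate 1 of KO at CT0 the CT0 difference was 2.996, and without replicate 2 it was 2.13, so each of these livers moved it by more than its standard error. On the rows used, Lpl changed rank with genotype. In WT it stood below every other listed gene but Vldlr, and in replicate 3 at CT12 below Vldlr too. In KO it stood above Apoa4 in each library but replicate 1 at CT0.

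**Figure D1:**
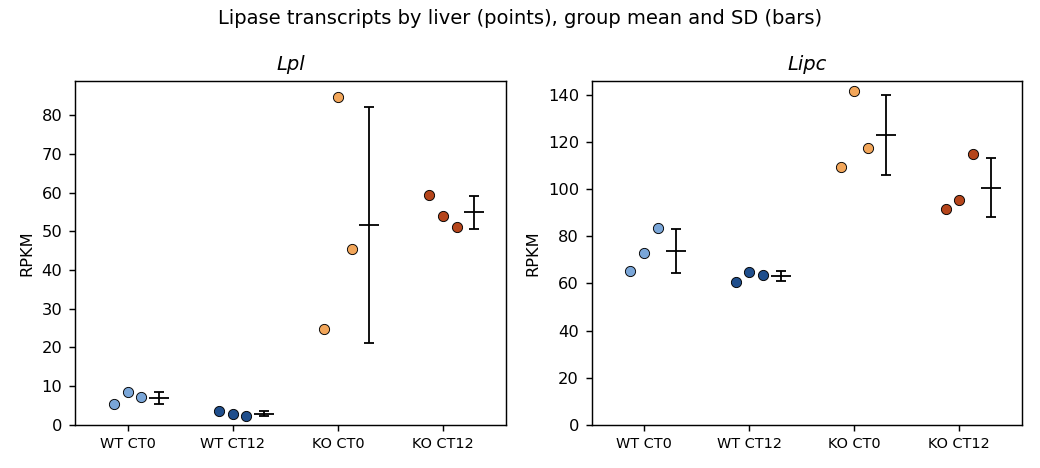
RPKM (vertical axis, linear from 0) of Lpl (left) and Lipc (right) in the 12 livers, 1 point per liver, with the mean and SD of each group of 3 drawn beside the points. The KO points of Lpl lie between 24.7 and 84.7 RPKM and the WT points between 2.32 and 8.46 RPKM, and the KO points of Lipc lie above its WT points at each time.

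Time of day was tested for Lpl, because the gene was listed for its genotype difference and not for this contrast. The time contrasts use the same livers, and the interaction is the difference between the genotype differences at CT12 and CT0. Their p-values for Lpl are therefore not independent of the choice of the gene. In WT all 3 livers at CT12 lay below all 3 at CT0, with a log2 difference of -1.04 (95% interval -1.75 to -0.33, adjusted p = 0.0603, limma), which missed the threshold of 0.05. The call depended on the setting: the adjusted p was 0.0362 with a pseudocount of 0.1, 0.00989 when only the 6 WT libraries were fitted, 0.0104 without replicate 1 and 0.0111 without replicate 2 of KO at CT0. With only the 6 WT libraries, or without either of these KO livers, the WT difference itself stayed at -1.04. The KO livers enter this contrast only through the spread shared by the 4 groups and the adjustment. Over all fits that left out a library the WT difference ranged from -1.19 to -0.91, with adjusted p from 0.0104 to 0.176 (limma). In KO the difference was 0.26 (95% interval -0.45 to 0.96, adjusted p = 0.715), with overlapping values. The interaction of genotype and time was 1.29 (SE 0.46, unadjusted p = 0.0158, adjusted p = 0.254), so a different time course in the genotypes was not shown. It rose to 1.73 (adjusted p = 0.0271) when replicate 2 of KO at CT0, the highest liver, was left out. Over all fits that left out a library it ranged from 0.86 to 1.73, with adjusted p up to 0.444.

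Markers of other cells were examined beside Lpl, since fat, muscle and macrophages are known to make it. Of the 7 adipocyte markers, Lep and Retn were at 0 in every library, Adipoq and Plin1 had group means of at most 0.0383 RPKM, and the marker sum spanned 4.93 to 11.2 RPKM in WT livers and 5.45 to 16.5 RPKM in KO livers. Fabp4 alone of the 7 was high enough to be tested, and it passed in none of the 4 comparisons. The 5 muscle markers summed to at most 1.28 RPKM, and Myh6 was at 0 throughout. The sum of 8 macrophage markers spanned 185 to 245 RPKM in WT and 182 to 249 in KO at CT0, and 114 to 175 in WT and 119 to 215 in KO at CT12. None of the 8 macrophage, 5 endothelial and 7 stellate markers passed the test between genotypes at either time. In WT the sums were lower at CT12, as was Lpl. The endothelial sum spanned 40.7 to 45.6 RPKM at CT0 and 24.2 to 26.5 at CT12. Called lower were 2 of 5 endothelial, 1 of 8 macrophage and 1 of 7 stellate markers, beside 7.88% of all genes tested. In KO, where Lpl was not lower at CT12, the endothelial sum spanned 43.7 to 44.6 RPKM at CT0 and 18.4 to 41.2 at CT12. The stellate sum in KO spanned 170 to 200 and 124 to 161 RPKM, and none of these markers was called with time in KO. The part of these cells in the Lpl values was not tested. Of the 4 tested cholangiocyte markers only Spp1 passed between genotypes, at 52.1, 35.5, 119 and 105 RPKM in WT CT0, WT CT12, KO CT0 and KO CT12. The other 4 listed cholangiocyte markers summed to at most 5.68 RPKM, and 1 of them, Krt7, was called lower at CT12 in WT.

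The genes whose profile over the 12 livers was most like that of Lpl were Itih2 (Pearson r = 0.973), Sdr9c7 (0.960), Spp1 (0.957), Rpl10a (0.956) and Col5a3 (0.953), ranked among 10798 other genes. The livers share their genotype, so this ranks genes that also differ between KO and WT. Itih2 stood at 566, 507, 673 and 708 RPKM in WT CT0, WT CT12, KO CT0 and KO CT12. Col5a3, a collagen gene, stood at 7.62, 3.83, 13.5 and 17.8 RPKM in the same order. Among the listed genes Lipc came nearest (r = 0.910, rank 44), followed by Apoc3 (r = 0.543).

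Lipc encodes hepatic lipase, which trims the triglyceride and phospholipid of remnant and high density particles. The livers gave 65.1, 73.1 and 83.6 RPKM in WT at CT0 and 60.7, 64.9 and 63.7 RPKM in WT at CT12. In KO they gave 109, 142 and 118 RPKM at CT0 and 91.6, 95.3 and 115 RPKM at CT12. Every KO liver lay above every WT liver, as for Lpl but with a far smaller gap. Lipc rose by 0.72 on the log2 scale at CT0 (SE 0.12, 95% interval 0.45 to 0.99, adjusted p = 0.0122, limma) and by 0.66 at CT12 (SE 0.12, 95% interval 0.39 to 0.93, adjusted p = 0.00488). These correspond to ratios of group means of 1.66 and 1.59. The listed genes were chosen with earlier results of these livers known, so the p-values of Lipc are not independent of that choice. The CT0 call was lost when only the 6 CT0 libraries were fitted (adjusted p = 0.0604) and without replicate 2 of WT at CT0 (adjusted p = 0.0584), whereas the CT12 call held with each library left out in turn. The CT12 minus CT0 difference of Lipc was -0.22 in WT and -0.28 in KO, neither past the threshold (adjusted p = 0.286 and 0.227).

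Because Lpl and Lipc moved by such different amounts, their balance shifted. Lipc stood 10.8 ± 1.87 times (SD, n = 3) above Lpl in WT at CT0 and 22.7 ± 5.34 times in WT at CT12. In KO it stood 2.90 ± 1.41 times above Lpl at CT0 and 1.85 ± 0.361 times at CT12. The ranges of the ratio did not overlap between genotypes, from 8.64 to 27.5 in WT and from 1.54 to 4.43 in KO. This follows from the Lpl rise by which the gene was chosen, and Lipc remained the more abundant lipase transcript in each of the 12 livers.

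Start-site sequence could be shown for 8 of the 10 genes, all but Lpl and Apoc3, from RefSeq windows on GRCm38.p6. The 250 bases before a start site of Lipc are shown because Lipc was the listed gene called at both times. The window is chr9:70934809-70935058 on the minus strand, printed 5′ to 3′, and capitals mark AGGTCA, the half-site read by many nuclear receptors, and CCAAT on either strand.
Lipc: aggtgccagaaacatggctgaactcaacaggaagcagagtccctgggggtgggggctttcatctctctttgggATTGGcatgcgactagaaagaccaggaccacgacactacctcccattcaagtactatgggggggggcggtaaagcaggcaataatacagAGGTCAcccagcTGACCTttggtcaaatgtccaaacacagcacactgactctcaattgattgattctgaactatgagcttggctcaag
AGGTCA begins 88 bases before this start, and its reverse complement begins 76 bases before it, and no other of the 8 genes had this motif in its windows. Of all 32851 RefSeq windows of the same length, 14.0% held AGGTCA and 33.8% held CCAAT, each on either strand. The second Lipc window, at chr9:70952222-70952471, held CCAAT but no AGGTCA.

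Neither assembly gene, Mttp or Apob, passed a test between genotypes. Mttp encodes the lipid-loading subunit of the microsomal triglyceride transfer protein, and its livers gave 97.4, 97.6 and 98.9 RPKM in WT at CT0 and 105, 106 and 100.02 RPKM in WT at CT12. The KO livers gave 157, 94.3 and 101 RPKM at CT0 and 91.1, 90.0 and 103 RPKM at CT12, so that replicate 1 at CT0 stood apart and the other KO livers lay near WT. The genotype difference of Mttp was 0.22 at CT0 (95% interval -0.11 to 0.55, adjusted p = 0.569, limma) and -0.01 without that liver, and it was -0.13 at CT12 (95% interval -0.46 to 0.20, adjusted p = 0.654). P4hb, the protein disulfide isomerase that is the other subunit, stood at 513, 434, 512 and 507 RPKM in WT CT0, WT CT12, KO CT0 and KO CT12 and passed the test in none of the 4 comparisons.

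Apob varied least of the 10 genes over the 12 livers, with group means of 1549 ± 3.19 RPKM (SD, n = 3) in WT at CT0, 1509 ± 92.0 in WT at CT12, 1452 ± 85.8 in KO at CT0 and 1517 ± 113 in KO at CT12. Its coefficient of variation over the 12 livers was 5.35%, against 15.5% to 98.0% for the other 9 genes. The log2 genotype differences were -0.09 (95% interval -0.28 to 0.10) at CT0 and 0.01 (95% interval -0.18 to 0.20) at CT12, with adjusted p of 0.694 and 0.975. Every CT0 value in KO lay below the WT values, which themselves spanned only 1545 to 1551 RPKM. The highest KO value was 1544.9 RPKM and the lowest WT value 1545.3 RPKM, and in both long rows named next the CT0 values of the genotypes overlapped. The row used is a transcript of 1118 bases from the start of the gene, and the 2 long rows of 13369 and 13934 bases gave lower levels, 1026 and 1010 RPKM in WT at CT0, with genotype differences of -0.08 at CT0 and 0.00 at CT12 for both.

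**Figure D2:**
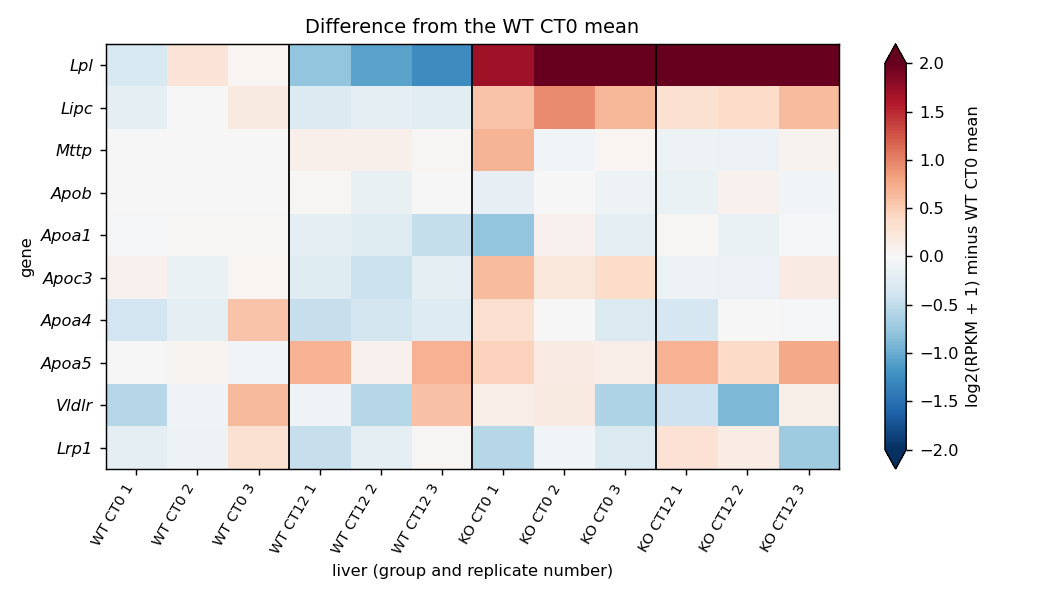
Each cell is the difference of log2(RPKM + 1) from the mean of WT at CT0, with genes in rows and the 12 livers in columns by group and replicate number, and colours run from -2 to 2. The Lpl row separates KO from WT, the Lipc row does so more weakly, and the Mttp and Apoa1 cells of replicate 1 of KO at CT0 differ from those of the other KO livers.

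Apoa1, Apoc3, Apoa4 and Apoa5 lie together within 43.3 kb at chr9:46036663-46080002 (mm9), and their values are given gene by gene. Apoa1 makes the main protein of high density lipoprotein and was the most abundant of the 10 genes in each liver. Its livers gave 4595, 4805 and 4814 RPKM in WT at CT0 and 4137, 4019 and 3421 RPKM in WT at CT12. In KO they gave 2729, 5015 and 4163 RPKM at CT0 and 4828, 4299 and 4619 RPKM at CT12, with the low value again in replicate 1. The genotype difference was -0.30 at CT0 and 0.25 at CT12 (adjusted p = 0.491 and 0.427, limma), and the CT0 value was -0.05 without replicate 1 of KO. The interaction was 0.55 (95% interval 0.00 to 1.10, unadjusted p = 0.0488, adjusted p = 0.403), and it was 0.30 without that liver.

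Apoc3 makes a small apolipoprotein known to inhibit lipoprotein lipase and to slow remnant uptake. The livers gave 1466, 1259 and 1406 RPKM in WT at CT0 and 1165, 1026 and 1214 RPKM in WT at CT12. In KO they gave 2133, 1605 and 1766 RPKM at CT0 and 1286, 1268 and 1534 RPKM at CT12. At each time every KO liver lay above every WT liver, and in each genotype every CT12 liver lay below every CT0 liver. Taken at 1 time, neither genotype difference passed the test: it was 0.41 at CT0 and 0.26 at CT12 (adjusted p = 0.141 and 0.215, limma). Averaged over both times, a contrast added after these values were seen, Apoc3 was higher in KO by 0.33 (95% interval 0.14 to 0.53, adjusted p = 0.0282). That call was lost with no filter on low values (adjusted p = 0.0694) and on leaving out WT CT0 replicate 2 (0.0778), WT CT0 replicate 3 (0.0544), WT CT12 replicate 2 (0.0664) or KO CT12 replicate 3 (0.0631). The CT12 minus CT0 differences were -0.28 in WT (adjusted p = 0.171) and -0.42 in KO (adjusted p = 0.0948). Their average was -0.35 (95% interval -0.54 to -0.16, adjusted p = 0.0183), a call kept with each library left out but lost after quantile normalization (-0.22, adjusted p = 0.0919).

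Apoa5, whose product aids lipoprotein lipase and lowers plasma triglyceride, ran the other way with time. Its livers gave 262, 273 and 252 RPKM in WT at CT0 and 426, 279 and 423 RPKM in WT at CT12. In KO they gave 362, 295 and 287 RPKM at CT0 and 424, 341 and 441 RPKM at CT12. In WT all CT12 values exceeded the CT0 values, though replicate 2 only by a few units, and in KO the values overlapped. CT12 exceeded CT0 by 0.49 in WT and 0.35 in KO (adjusted p = 0.0713 and 0.251, limma). The WT difference was 0.69 (adjusted p = 0.00886) without WT CT12 replicate 2. Averaged over genotypes, again a contrast added after the values were seen, Apoa5 rose by 0.42 (95% interval 0.17 to 0.67, adjusted p = 0.0270). Of the 12 fits that each left out a library, 8 lost the call, with adjusted p of 0.0501 to 0.0657. They left out WT CT0 replicate 1 or 3, WT CT12 replicate 1 or 3, KO CT0 replicate 2 or 3, or KO CT12 replicate 1 or 3. The genotype difference of Apoa5 was 0.25 at CT0 and 0.12 at CT12 (adjusted p = 0.526 and 0.720).

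As a share of Apoc3, Apoa5 stood at 19.1% ± 2.20 (SD, n = 3) in WT at CT0 and 32.9% ± 5.02 in WT at CT12. In KO it stood at 17.2% ± 1.09 at CT0 and 29.6% ± 3.10 at CT12. The shares ran from 16.2% to 21.7% over all CT0 livers and from 26.9% to 36.6% over all CT12 livers, so the times did not overlap in either genotype. This follows from the rise of Apoa5 and the fall of Apoc3 with time given above, and the share was not tested.

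An Apoa5 window is shown because Apoa5 alone of the 8 genes held CACGTG, the E-box letters that the BMAL1 and CLOCK pair is known to bind. It is the first of its overlapping windows, chr9:46268358-46268607 on the plus strand (RefSeq, GRCm38.p6), printed 5′ to 3′, and capitals mark CACGTG and TATAAA.
Apoa5: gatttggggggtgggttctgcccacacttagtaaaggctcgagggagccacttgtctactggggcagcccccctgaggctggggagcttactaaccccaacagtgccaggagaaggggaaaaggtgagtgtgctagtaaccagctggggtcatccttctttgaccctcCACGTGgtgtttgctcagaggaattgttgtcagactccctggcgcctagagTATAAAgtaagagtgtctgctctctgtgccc
CACGTG, which reads the same on both strands, begins 82 bases before the start and was held by 6.02% of all 32851 windows. TATAAA was searched on both strands and begins 31 bases before the start, and 12.4% of all windows held it. The other Apoa5 window, chr9:46268383-46268632, ends at a later start and holds the same letters, 107 and 56 bases before that start. CACGTT, the DR1 repeat of AGGTCA and ATGCAAAT were also searched on both strands, are held by 3.85%, 0.0335% and 1.60% of all windows, and were in no window of the 8 genes. The letters alone do not show binding.

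Apoa4 encodes an apolipoprotein made mostly by gut, and its groups overlapped in every comparison. The livers gave 24.1, 27.7 and 47.9 RPKM in WT at CT0, 22.7, 24.4 and 26.5 in WT at CT12, 40.1, 31.7 and 25.9 in KO at CT0 and 24.99, 31.9 and 31.3 in KO at CT12. The genotype difference was 0.01 at CT0 (95% interval -0.47 to 0.49) and 0.24 at CT12 (95% interval -0.24 to 0.73), with adjusted p of 0.989 and 0.549 (limma). A gene on the other strand, Gm10680, overlaps 632 of the 1815 bases of this row, and the library kit does not keep strand, so reads of the pair cannot be told apart.

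**Figure D3:**
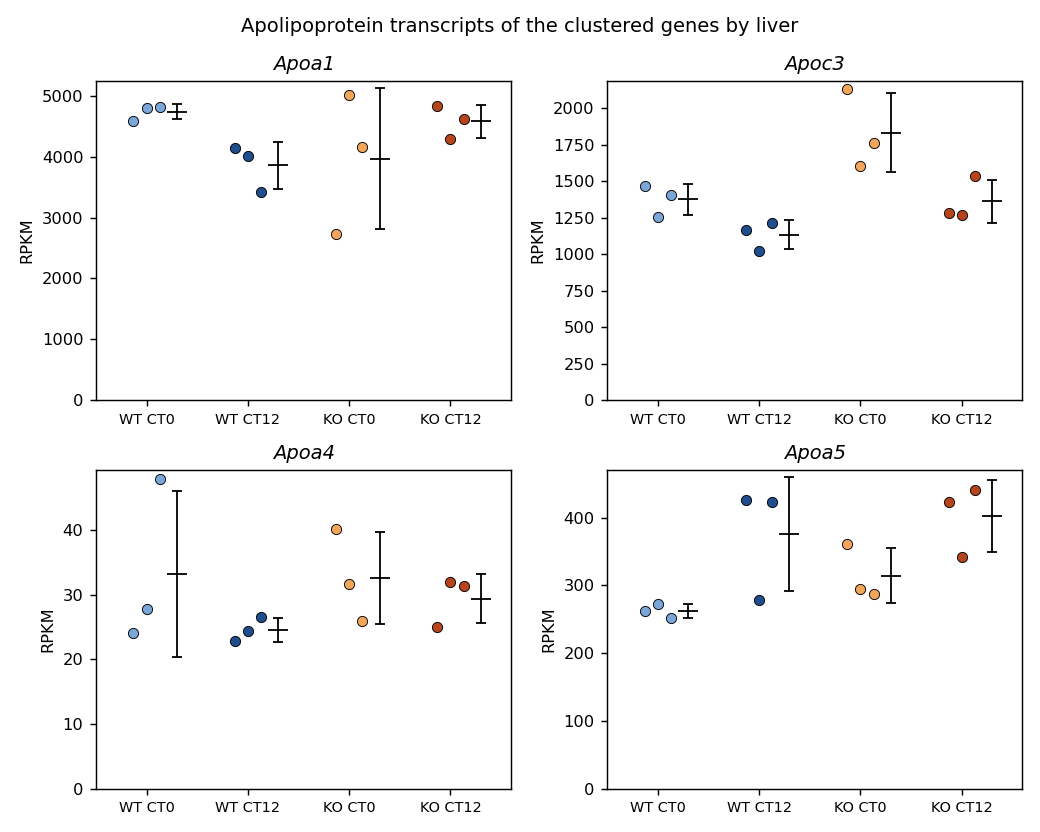
RPKM (vertical axes, linear from 0) of Apoa1, Apoc3, Apoa4 and Apoa5 in the 12 livers, 1 point per liver, with the mean and SD of each group of 3. Apoc3 points at CT12 lie below those at CT0 within each genotype, Apoa5 means rise from 262 to 376 RPKM in WT, and the lowest Apoa1 point is 2729 RPKM in KO at CT0.

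Neither receptor gene passed a test. Lrp1, whose product clears remnants from blood, had group means of 105 ± 20.1 RPKM (SD, n = 3) in WT at CT0, 90.6 ± 15.2 in WT at CT12, 84.5 ± 15.3 in KO at CT0 and 102 ± 34.3 in KO at CT12. Its genotype difference was -0.31 at CT0 (95% interval -0.84 to 0.22, adjusted p = 0.639, limma) and 0.11 at CT12 (95% interval -0.42 to 0.64, adjusted p = 0.823). The Lrp1 row used is only 292 bases long, and the row of 14888 bases gave -0.31 and 0.13 for the same contrasts. Vldlr, a receptor that is abundant in heart, muscle and fat, lay between 0.293 and 2.75 RPKM on 3 to 36 reads per library. The row used is 774 bases long, and its genotype difference was -0.10 at CT0 (95% interval -0.91 to 0.71) and -0.37 at CT12 (95% interval -1.19 to 0.44). The rows of 3260 and 3855 bases gave 0.09 and 0.11 at CT0 and -0.06 and -0.05 at CT12, with standard errors of 0.26 and 0.23 beside 0.37 for the short row. So the sign at CT0 depended on the row, and none of these differences passed the test.

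The counts over the list stand beside those over all 10799 genes tested. The list was chosen with earlier results of these livers known, so the comparison of shares is a description and not a test. The averaged contrasts were added after values were seen. At CT0 only Lipc passed of the 9 genes other than Lpl, where 1.86% of all genes were called between genotypes, 1.02% higher and 0.843% lower in KO. At an unadjusted p under 0.05 there were 2 of 9, beside 14.2%. At CT12 again only Lipc passed of the 9, beside 10.5% called, 6.97% higher and 3.49% lower, and at an unadjusted p under 0.05 it was 1 of 9 beside 24.9%. Averaged over the times Lipc and Apoc3 were higher in KO, 2 of 9 beside 11.5% called, 7.44% higher and 4.03% lower, and also 2 of 9 at an unadjusted p under 0.05 beside 25.4%. Between times none of the 10 passed by limma in WT, where 11.6% of all genes were called, 3.71% higher and 7.88% lower at CT12, and 3 of the 10 had an unadjusted p under 0.05 beside 26.9%. In KO none passed by limma either, where 2.43% were called, 1.10% higher and 1.32% lower, and 2 of the 10 had an unadjusted p under 0.05 beside 19.9%. Without moderation and at an unadjusted p under 0.05, 2 of the 10 passed in WT beside 2771 of the 10799 genes, and 1 of the 10 in KO beside 2052. Averaged over the genotypes Apoa5 rose and Apoc3 fell, 2 of 10 beside 16.6% called, 6.08% higher and 10.5% lower, and 3 of 10 had an unadjusted p under 0.05 beside 31.9%. None of the 10 interactions passed by limma, where 1.49% of all genes were called, 1.07% positive and 0.417% negative. Of these, 2 had an unadjusted p under 0.05 beside 12.3%, those of Lpl and Apoa1. Without moderation 1 did so, that of Lpl, beside 1323 of the 10799 genes.

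The median absolute log2 difference of the 9 genes between genotypes was 0.25 at CT0 and 0.24 at CT12, beside 0.13 and 0.16 over all genes tested. The signed medians were 0.01 at CT0 and 0.12 at CT12, beside 0.01 and 0.08, with 5 and 7 of the 9 genes higher in KO. Ranges did not overlap between genotypes for 5 of the 10 genes at CT0 and 4 at CT12, where 20.6% and 28.8% of all genes showed this. These counts include Lpl, which was chosen by its genotype difference. The others were Lipc, Apob, Apoc3 and Apoa5 at CT0 and Lipc, Apoc3 and Apoa1 at CT12. The corresponding numbers between times were 6 of 10 in WT and 1 in KO, beside 34.1% and 23.2%.

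**Figure D4:**
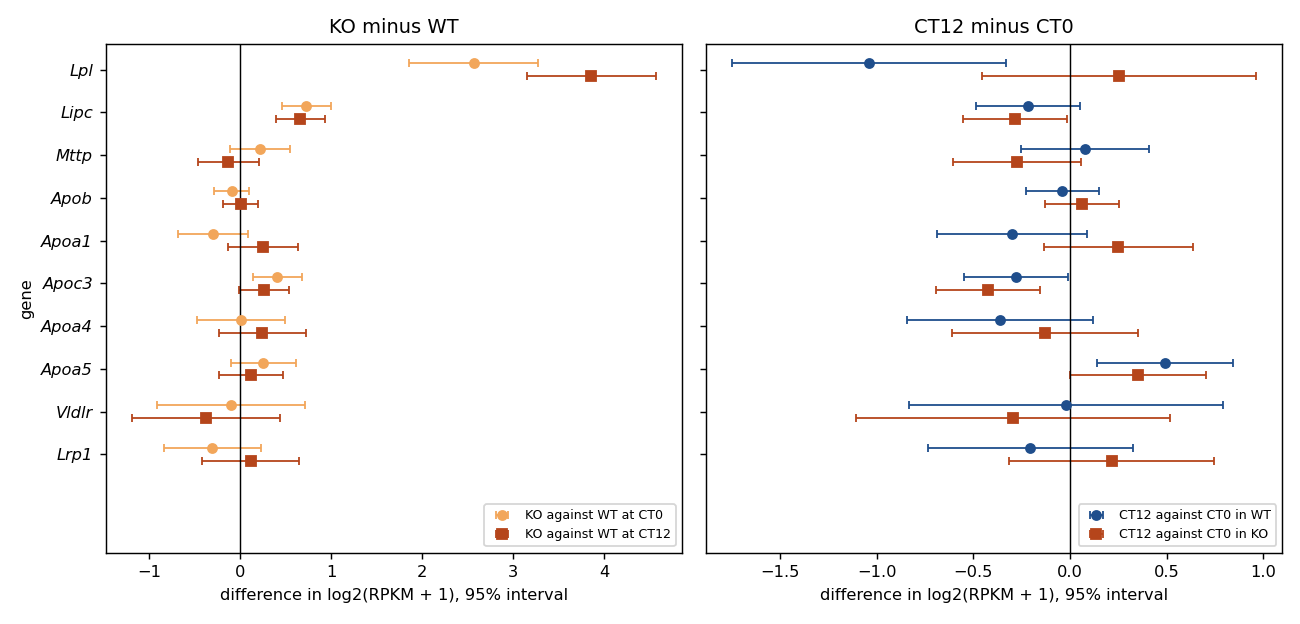
Differences in log2(RPKM + 1) with 95% intervals from limma for the 10 genes, KO minus WT at CT0 and CT12 (left) and CT12 minus CT0 in WT and KO (right), with a line at 0. In the left panel the intervals of Lpl and Lipc lie above 0 at both times, and for Lpl they describe the contrast by which it was chosen. In the right panel the Apoc3 points lie below 0 and the Apoa5 points above it in both genotypes.

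The proteins that hold, anchor or inhibit lipoprotein lipase were read from a separate list. Angptl4 encodes an inhibitor that unfolds the enzyme, and it gave 3.74, 10.2 and 9.73 RPKM in WT at CT0, 28.7, 15.5 and 29.7 in WT at CT12, 3.67, 3.47 and 2.46 in KO at CT0 and 9.95, 7.001 and 22.6 in KO at CT12. It rose with time in WT by 1.57 (adjusted p = 0.0292, limma), a call lost without WT CT0 replicate 1 (0.0961), WT CT12 replicate 1 (0.0924) or WT CT12 replicate 3 (0.101). In KO the same difference was 1.61 (adjusted p = 0.0622). Both averaged contrasts that follow were added after values were seen. Averaged over genotypes the rise was 1.59 (SE 0.29, adjusted p = 0.00397). It was lower in KO by 0.97 averaged over the times (adjusted p = 0.0485), and 9 of the 12 fits that left out a library lost that call, all but those without WT CT0 replicate 1, WT CT12 replicate 2 or KO CT12 replicate 3, with adjusted p up to 0.114.

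Gpihbp1, Lmf1 and Gm6484 did not pass the test between genotypes at either time. Gpihbp1, the endothelial protein that carries the enzyme across the vessel wall, had means of 18.1, 9.11, 18.9 and 11.03 RPKM in WT CT0, WT CT12, KO CT0 and KO CT12. It fell with time in WT by 0.92 (adjusted p = 0.0223, limma), a call lost without any WT library but WT CT0 replicate 1 (adjusted p up to 0.0778), beside the like fall of the endothelial marker sum given above, whose part in it was not tested. Lmf1, the factor that lets the enzyme fold, had means of 16.1, 14.97, 17.1 and 19.1 RPKM in the same order, with a genotype difference of 0.33 at CT12 (adjusted p = 0.0571). Gm6484, the symbol under which the files list Angptl8, had means of 30.7, 44.8, 34.8 and 80.3 RPKM, with a genotype difference of 0.83 at CT12 (adjusted p = 0.255).

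Lipg, encoding endothelial lipase, was lower in KO than in WT at CT12. The livers gave 1.31, 2.07 and 2.44 RPKM in WT at CT0, 4.26, 7.82 and 9.02 in WT at CT12, 1.13, 0.705 and 0.438 in KO at CT0 and 1.45, 1.74 and 2.61 in KO at CT12. At CT12 it was lower in KO by 1.42 (SE 0.25, adjusted p = 0.0033, limma), and it rose with time in WT by 1.42 (adjusted p = 0.00387), both calls kept with each library left out. These contrasts share the WT CT12 livers. At CT0 its genotype difference was -0.74 (adjusted p = 0.181).

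Beyond these, 6 lists of pathway genes held 71 genes, of which 67 were tested. At CT0 4 of the 67 passed between genotypes, 1 higher and 3 lower in KO, beside 1.02% higher and 0.843% lower of all genes tested. Apof, a lipid transfer inhibitor protein, rose by 0.44 (adjusted p = 0.0441, limma), while Nr1d1, the clock repressor REV-ERB alpha, fell by 1.52 (0.0329), Pltp, the phospholipid transfer protein, fell by 0.96 (0.0180) and Ppara, the fatty acid sensing receptor, fell by 0.62 (0.0238). Each of these CT0 calls was lost in some of the fits that left out a library, with adjusted p up to 0.189, 0.106, 0.0894 and 0.0965. Nr1d1 was low throughout, at 2.04, 2.05 and 6.57 RPKM in WT at CT0 and 0.271, 0.310 and 0.802 in KO at CT0. Its CT0 difference ranged from -1.74 to -1.08 over those fits.

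At CT12 11 of the 67 passed, 5 higher and 6 lower in KO, beside 6.97% higher and 3.49% lower of all genes tested. Lrp5, a receptor of the same family as Lrp1, was higher by 1.31 (adjusted p = 4.09e-05, limma). Ppara was lower by 1.04 (adjusted p = 0.000149), Srebf1 by 0.99 (0.00944), Mlxipl by 0.95 (0.0202) and Pparg by 0.80 (0.0138). The last 3 are regulators of lipid synthesis and storage. The calls of Mlxipl and Pparg were each lost with some CT12 libraries left out (adjusted p up to 0.0740 and 0.0564). By list, 4 of 16 transcription factors were called, all lower, and 3 of 9 other apolipoproteins, all higher: Apof, Apoh and Apon. These counts stand against the same 3.49% and 6.97%, and the lists themselves were not tested. In the remaining lists 1 of 11 assembly genes, 1 of 14 lipases and regulators, 2 of 14 receptors and 0 of 3 genes for high density lipoprotein were called.

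Between times in WT 13 of the 67 passed, 7 higher and 6 lower at CT12, beside 3.71% higher and 7.88% lower of all genes tested. Besides Angptl4, Lipg and Gpihbp1 the largest were Lrp5, lower by 1.002 (adjusted p = 0.000377, limma), Pnpla2, encoding adipose triglyceride lipase, higher by 0.75 (0.00632), and Apobec1, encoding the enzyme that edits Apob RNA, lower by 0.72 (0.0296, up to 0.111 with a library left out). In KO 3 of the 67 passed, all lower at CT12, beside 1.32% lower of all genes tested: Srebf1 by 1.25 (0.0134), Mlxipl by 1.02 (0.0395) and Sdc1, a remnant-binding proteoglycan, by 0.74 (0.0255). Each of these KO calls was lost in some fit with a library left out, with adjusted p up to 0.0507, 0.117 and 0.0850.

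**Figure D5:**
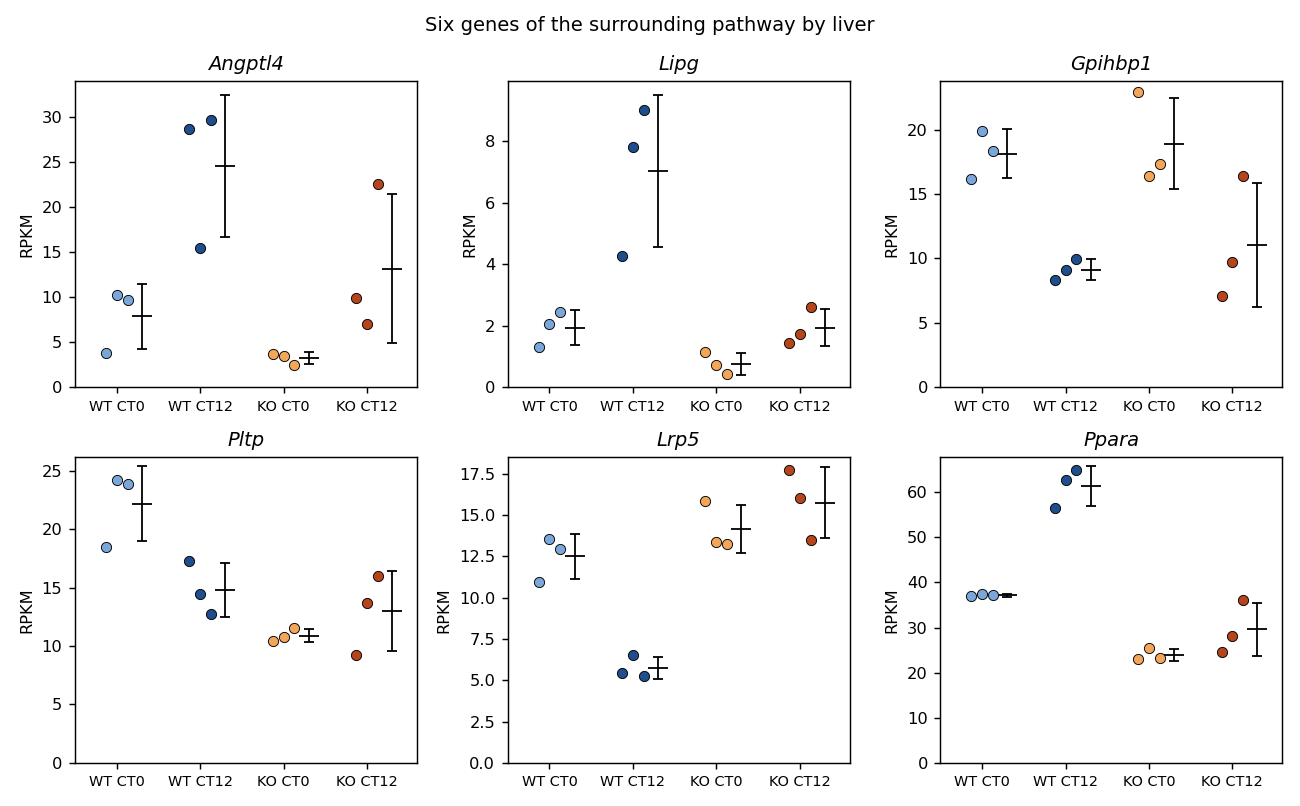
RPKM (vertical axes, linear from 0) of Angptl4, Lipg, Gpihbp1, Pltp, Lrp5 and Ppara in the 12 livers, 1 point per liver, with the mean and SD of each group of 3. The means of Lipg and Angptl4 are highest in WT at CT12, the Lrp5 points are lowest there, and the Ppara points of KO lie below those of WT at each time.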

How the data were processed

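Transcript levels in 12 mouse livers (TruSeq libraries of total RNA, strand not kept) were analysed from the tables the authors deposited, 1 per library, with RPKM for 46585 Ensembl transcripts. The processing notes name TopHat2, bedtools 2.19.1 and mm9, without saying how reads shared by transcripts were counted, so rows of a gene are not independent. Groups and replicate numbers came from the sample titles. RPKM times transcript length (GENCODE vM1, NCBIM37) fell on whole-read steps for 95.4% to 96.4% of low values (tolerance 0.05), which gave the depth. The 10799 genes reaching a group mean of 1 RPKM anywhere were fitted as log2(RPKM + 1) with limma 3.58.1 (R 4.3.3, 4 group means, trended prior). Adjusted p-values are Benjamini-Hochberg over all 10799 genes, two-sided, with a threshold of 0.05. The code was tested on simulated data. Tables were joined in pandas 2.3.3 under Python 3.11.15, and figures drawn in matplotlib 3.10.9.

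The 10 genes, the pathway lists and the markers were chosen with earlier results of these data known. In each contrast the 10 genes and the partners of LPL and MTTP were named (1 partner is not reported here), with up to 6 called pathway genes of largest difference and the 5 genes most like Lpl. Alternatives were a pseudocount of 0.1, other filters, quantile normalization, all transcript rows, a replicate block, no moderation, only the 6 libraries compared, and leaving out each library. Other apolipoprotein names at CT12 (Apoh, Apon) were added after their values were seen. Same-numbered libraries did not deviate together (mean r = 0.00826, range -0.0665 to 0.139), so numbers were not taken as pairs.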

Additional observations from a re-analysis of the deposited data

Results flagged for a closer look

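Lrp5 was the only gene of the pathway lists, and of the 10 genes, whose genotype difference itself differed between the times by the test of that difference. It was 1 of 67 tested pathway genes, beside 1.49% of all genes tested, so the count is no higher than that share. The genotype by time interaction was 1.14 on the log2(RPKM + 1) scale (SE 0.18, adjusted p = 0.00729, limma), and it stayed past the threshold with each library left out (1.06 to 1.24). The livers gave 10.95, 13.6 and 12.96 RPKM in WT at CT0, 5.43, 6.51 and 5.26 in WT at CT12, 15.9, 13.4 and 13.2 in KO at CT0 and 17.7, 16.1 and 13.5 in KO at CT12.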

How the results depend on the processing

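The number of the 10 genes called (9 between genotypes) changed as follows. At CT0 between genotypes it was 2 with unadjusted p and no moderation, and 0 with only the 6 libraries compared. Between times in WT it was 1 with a pseudocount of 0.1, 2 without moderation and 1 with only 6 libraries. Without moderation it was 1 in KO, 1 for the interaction and 3 for the averaged time contrast, where Lipc was added (unadjusted p = 0.0261). It was 1 for the averaged genotype contrast with no filter and 1 for the averaged time contrast with quantile normalization. Leaving out each library gave 0 to 1 at CT0, 0 to 1 between times in WT, 0 to 1 for the interaction, 1 to 2 for the averaged genotype contrast and 1 to 4 for the averaged time contrast. Quantile normalization turned the sign of uncalled differences: Apoa4 at CT0 (-0.020), Apob at CT12 (-0.14), in WT with time (0.13) and in the interaction (-0.029), Vldlr in WT with time (0.13) and Apoa1 in the averaged time contrast (0.014). Leaving out a library turned others, none of them called. At CT0 Vldlr ranged from -0.39 to 0.22, Mttp from -0.0077 to 0.36 and Apoa4 from -0.18 to 0.30. At CT12 Apob ranged from -0.050 to 0.056, Apoa5 from -0.087 to 0.23 and Lrp1 from -0.078 to 0.43. With time in WT Vldlr ranged from -0.32 to 0.30 and Apob from -0.069 to 0.012, and in KO Lpl from -0.18 to 0.69 and Apoa4 from -0.28 to 0.027. In the interaction Lipc ranged from -0.17 to 0.041, Vldlr from -0.60 to 0.028 and Apoa4 from -0.056 to 0.43. Averaged between genotypes, Mttp ranged from -0.069 to 0.11, Apoa1 from -0.12 to 0.10 and Lrp1 from -0.19 to 0.060. Averaged between times, Vldlr ranged from -0.31 to 0.0017, Mttp from -0.17 to 0.017, Apob from -0.017 to 0.037, Apoa1 from -0.15 to 0.070 and Lrp1 from -0.091 to 0.16. In the same contrast Lpl was called without KO CT0 replicate 1 (-0.61, adjusted p = 0.0283, limma), and Lipc without WT CT0 replicate 1, KO CT0 replicate 1 or KO CT12 replicate 3 (adjusted p = 0.0355 to 0.0487). With a replicate block the counts were 1 at CT0, 1 at CT12, 0 in WT, 0 in KO, 0 for the interaction, 2 averaged between genotypes and 3 averaged between times, the added gene being Lipc (adjusted p = 0.0491), and the pathway calls of Mlxipl in KO with time, Apof at CT0 and averaged Angptl4 were lost (0.0551, 0.0529 and 0.0527). Leave-one-out aside, 505 values of single genes kept direction and, where tested, side of the threshold, 6 reversed, 9 gained a call and 3 lost one. The 505 include the untested genotype differences of Lpl, which were judged by direction and size alone. Only the pseudocount and quantile normalization could change a direction here, because the other settings left the differences themselves unchanged. Several of the gained calls came from setting an unadjusted p against the threshold. Vldlr had no value when 1 RPKM was required in every library. Except where stated above, the cause was not tested. The Vldlr row used held only 3 to 36 reads per library.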
